A study of Homo sapiens with 3 samples.

Results

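The genes described here are 49 protein-coding genes of nucleolar ribosome biogenesis and RNA polymerase I transcription, out of 20033 protein-coding genes on the main chromosomes. They were taken by name as classic MYC-driven genes, without a threshold on any measured value but with earlier results of these data known, and all 49 were found in the gene annotation. The study profiled the chromatin remodeler CHD8 and the acetyltransferase scaffold TRRAP by chromatin immunoprecipitation and sequencing (ChIP-seq). The cells were wild-type (WT) human neural stem cells (hNSCs) derived from H9, a widely used human embryonic stem cell line. The lists hold no expression values, so the cell type could not be checked against its markers. Every library came from these untreated WT cells, and the groups differ in the antibody alone, which was against CHD8, against TRRAP or a control IgG. There was 1 library per antibody, so no value has a replicate error and no p-value was computed. The IgG library was not analysed here.

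Ribosomes are assembled in the nucleolus. RNA polymerase I transcribes the ribosomal RNA precursor, small nucleolar ribonucleoproteins (snoRNPs) guide its modification and first cleavages, and separate sets of assembly factors then build the small and the large subunit. Many of these genes are known targets of MYC, a transcription factor that binds the sequence CACGTG (the E-box) together with MAX and recruits TRRAP. The study's title asks about CHD8 and TRRAP at target genes of MYC and E2F, and in dividing stem cells ribosome production is part of that programme.

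A gene was counted as occupied when a peak of the authors' list reached within 1 kb, upstream or downstream, of its canonical transcript start (GENCODE release 44, GRCh38). CHD8 occupied 47 of the 49 genes (95.9%, Wilson 95% interval 86.3 to 98.9), against 55.9% of all protein-coding genes. TRRAP occupied 34 (69.4%, 55.5 to 80.5), against 34.9% of all genes. Both were at 34 genes (69.4%, against 34.0% of all genes), so every gene with TRRAP also had CHD8. Over all genes, 6802 of the 7000 with TRRAP had CHD8 too. A further 13 genes had CHD8 without TRRAP, and 2 had neither (4.08%, against 43.1% of all genes). Among the 47 genes with CHD8, TRRAP was present at 72.3% (58.2 to 83.1). That interval includes the 60.7% of all genes with CHD8. With only the upper 50% of each list by rank, 43 genes kept CHD8 (87.8%, against 42.5% of all genes) and 21 kept TRRAP (42.9%, against 19.5%). The intervals cover counting error over genes only, and genes of 1 library are not replicates.

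These promoters are rich in CpG, which moves with occupancy in both lists. The median CpG ratio (observed over expected, within 500 bp of the start) was 0.83 at the 49 genes and 0.72 over all genes, and 0 of the 49 lay in the lowest 3 deciles. Among 5227 other genes within the 25th to 75th percentile of the members' CpG ratio, CHD8 was present at 79.7% (78.6 to 80.7) and TRRAP at 51.7% (50.3 to 53.0). Both shares of the ribosome biogenesis genes were above these as well. Of the 18 genes in the 2 highest CpG deciles, all had CHD8 and 16 had TRRAP, where all genes had CHD8 at 81.0% and 86.1% and TRRAP at 61.1% and 67.6%. Of the 31 in deciles 4 to 8, 29 had CHD8 and 18 had TRRAP. Over all genes, the shares in deciles 4 to 8 ran from 57.0% to 81.2% for CHD8 and from 25.7% to 53.8% for TRRAP.

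**Figure D1:**
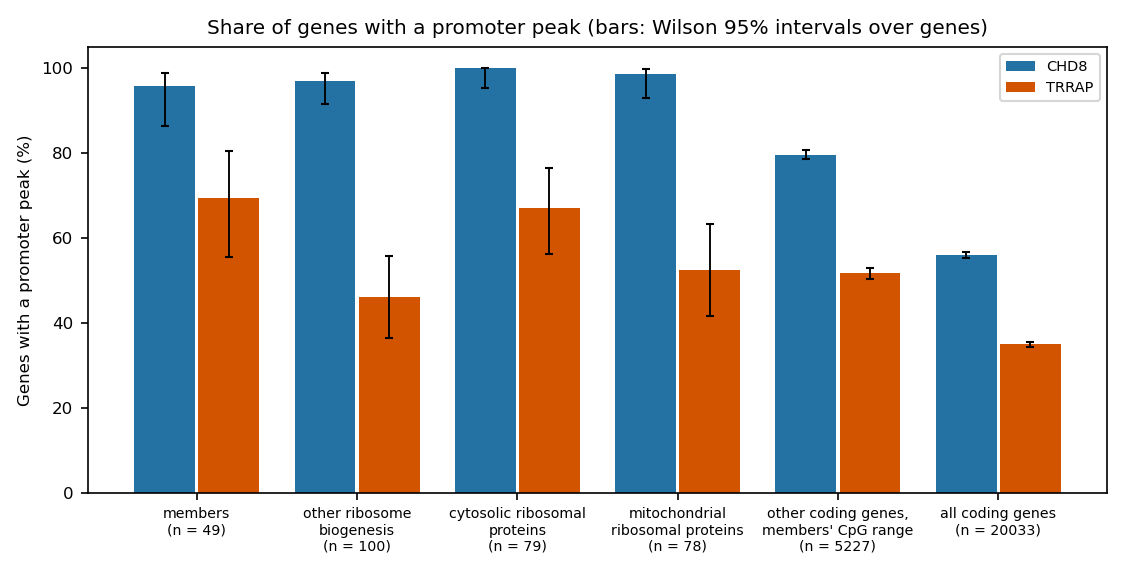
Share of genes with a promoter peak (vertical axis, percent) of CHD8 (blue) and TRRAP (orange) in the 49 ribosome biogenesis and RNA polymerase I genes (members) and in 5 other gene groups, with Wilson 95% intervals over genes. CHD8 is near its maximum in every ribosome-related group, whereas TRRAP runs from 46.0% in other ribosome biogenesis genes to 69.4% in the members.

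A longer list of 100 other ribosome biogenesis genes, written from general knowledge, had nearly the same CHD8 share but less TRRAP. CHD8 was present at 97 (97.0%) and TRRAP at 46 (46.0%, 36.6 to 55.7), which is below the 51.7% of other genes of like CpG ratio. The interval of the latter includes that background and meets that of the 49 genes at its upper end. Of the 79 cytosolic ribosomal protein genes, 79 had CHD8 and 53 had TRRAP (67.1%, 56.1 to 76.4). Of the 78 mitochondrial ribosomal protein genes, 77 had CHD8 and 41 had TRRAP (52.6%, 41.6 to 63.3). The TRRAP intervals of both groups overlapped that of the 49 genes.

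The E-box was not used as a criterion, but since the genes were picked as MYC-driven and MYC binds this sequence, its frequency here is not independent of the choice. The word CACGTG, searched without mismatch (it is its own reverse complement) from 250 bp before to 50 bp after the start, was in 21 of the 49 promoters (42.9%, 30.0 to 56.7). It was in 8.76% of all 20033 promoters of the same length, in 10.4% of those with CHD8 and in 33.0% of the 100 other ribosome biogenesis genes. Cytosolic and mitochondrial ribosomal protein promoters carried it in 7.59% and 8.97% of cases. The 10 stretches of 30 bases below are those in which the word lies nearest to the summit (the highest point) of the gene's CHD8 peak. In NOL6 the word lies between the gene's CHD8 peaks and inside neither of them. The stretches read 5′ to 3′ in the direction of transcription, with GRCh38 coordinates and the word in capitals.
FBL, chr19:39846356-39846385, minus strand: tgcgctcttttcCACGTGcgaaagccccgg
UTP18, chr17:51260445-51260474, plus strand: gggagtgctggtCACGTGgcaagaggctgc
PES1, chr22:30591880-30591909, minus strand: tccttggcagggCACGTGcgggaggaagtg
NOP10, chr15:34343130-34343159, minus strand: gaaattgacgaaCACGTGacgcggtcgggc
WDR43, chr2:28894658-28894687, plus strand: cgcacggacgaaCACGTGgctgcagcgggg
LTV1, chr6:143843354-143843383, plus strand: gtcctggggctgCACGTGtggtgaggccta
NOP14, chr4:2963374-2963403, minus strand: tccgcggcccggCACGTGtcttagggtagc
RRP1B, chr21:43659423-43659452, plus strand: cagcgccggcgcCACGTGcacacgggctgg
IMP4, chr2:130342900-130342929, plus strand: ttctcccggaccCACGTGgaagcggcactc
NOL6, chr9:33473894-33473923, minus strand: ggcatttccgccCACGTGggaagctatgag

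The position of the word was uneven. In 16 of the 49 genes (32.7%) its centre lay in the first 50 bp downstream of the start, a bin in which 1.00% of all genes and 17 of the 100 other ribosome biogenesis genes carried it. Over all genes the word was most frequent just upstream of the start instead (2.49% from 50 bp to 1 bp before it). In DDX18, WDR43, UTP18, GNL3, FBL, NOL6, PES1, NOP14 and IMP4 the centre lay between 1 and 17 bp downstream. In MYBBP1A, LTV1, BYSL, RRS1, GAR1, NOP2 and EBNA1BP2 it lay between 29 and 44 bp downstream. The window mattered for the count: within 500 bp of the start, 33 of 49 genes (67.3%) held the word, against 18.3% of all genes. Within 100 bp of the summit of the strongest CHD8 peak, 11 of 47 genes did (23.4%, against 6.94%).

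**Figure D2:**
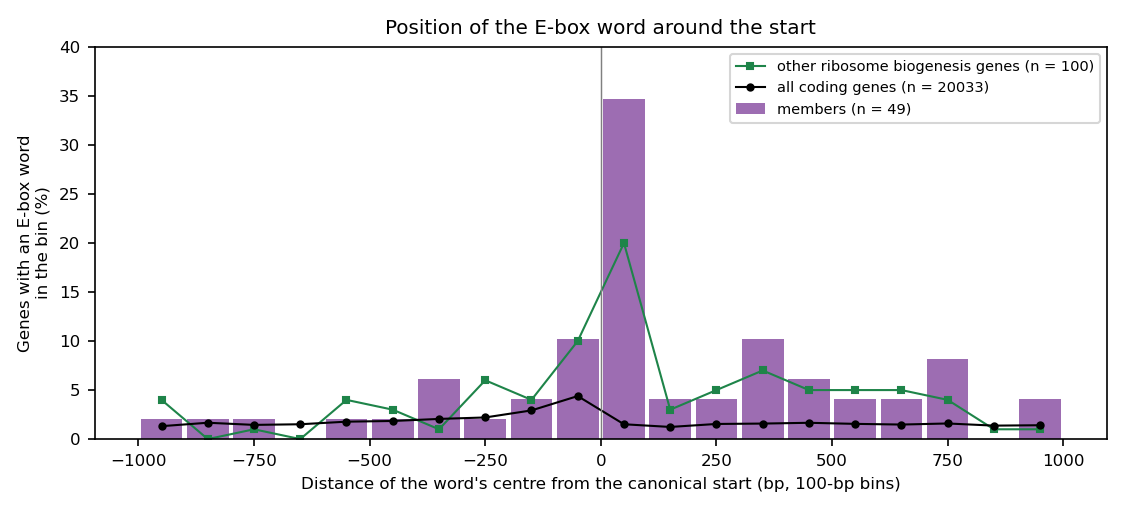
Percent of genes (vertical axis) with an E-box word centred in each 100-bp bin of distance from the canonical start (horizontal axis, bp), for the 49 members (bars), 100 other ribosome biogenesis genes (green) and all coding genes (black). The bin from 0 to 99 bp downstream holds 34.7% of the members, 20.0% of the other ribosome biogenesis genes and 1.51% of all genes.

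TRRAP summits lay close to the word in several genes. The distance was at most 20 bp in 7 of the 34 genes with TRRAP (20.6%, 10.3 to 36.8), counting every TRRAP peak in the window, against 3.47% of the 7000 genes with TRRAP and 10.9% (4.73 to 23.04) of the other ribosome biogenesis genes with TRRAP. These 7 genes were NPM1 and PES1 (3 bp each), RRP1B (4 bp), NOP56 (15 bp), IMP4 and UTP18 (16 bp each) and FBL (18 bp). Counting every CHD8 peak likewise, summits were within 20 bp of the word in 1 of 47 genes, FBL (12 bp), a share of 2.13% beside 1.83% of all genes with CHD8. Within 100 bp the counts were 13 of 34 for TRRAP (38.2%, against 11.0%) and 12 of 47 for CHD8 (25.5%, against 7.82%). The other ribosome biogenesis genes had nearly the same shares within 100 bp, 37.0% for TRRAP and 19.6% for CHD8. The word was also more frequent at the 49 genes in general (67.3% against 18.3% within 500 bp of the start), and its part in these distances was not tested.

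Inside the 49 genes, those with and without the word had close shares of peaks. CHD8 was at 20 of 21 genes with the word and 27 of 28 without it, and TRRAP was at 15 of 21 (71.4%) and 19 of 28 (67.9%). The median TRRAP fold was 9.60 with the word and 8.65 without it, and the median CHD8 fold was 13.7 and 15.9. The other ribosome biogenesis genes differed more in TRRAP, present at 19 of 33 with the word (57.6%) and 27 of 67 without it (40.3%). Their median TRRAP fold was 10.1 with the word and 7.69 without it. CHD8 was at 30 of these 33 genes and at all 67, with median folds of 15.3 and 13.7. Over all protein-coding genes, TRRAP was present at 44.3% of those with the word and 34.0% of those without it, and the median CpG ratio of the former was also higher (0.76 against 0.72).

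The peak values were described within each list. The fold is the authors' value for signal at the summit over the peak caller's background, on a linear scale, and where several peaks touched a window the one with the highest −log10 q was used. Fold values came in steps of 0.442 (CHD8) and 0.478 (TRRAP), so smaller differences could not be resolved. CHD8 folds at the 47 genes ran from 7.10 to 28.3 with a median of 14.6, above the median of 11.96 over all genes with a CHD8 promoter peak. In rank, 43 of the 47 (91.5%) lay in the upper 50% of the CHD8 list, against 76.0% of all occupied promoters, and 12 (25.5%) in the top 10%, against 19.8%. TRRAP folds at the 34 genes ran from 5.30 to 18.7 with a median of 8.65, the same as the median over all genes with TRRAP. Of these, 21 (61.8%) lay in the upper 50% of the TRRAP list, against 55.9%, and 2 (5.88%) in the top 10%, against 11.0%. TRRAP was thus present at more of these genes than at all genes, with a median fold equal to that of all genes.

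**Figure D3:**
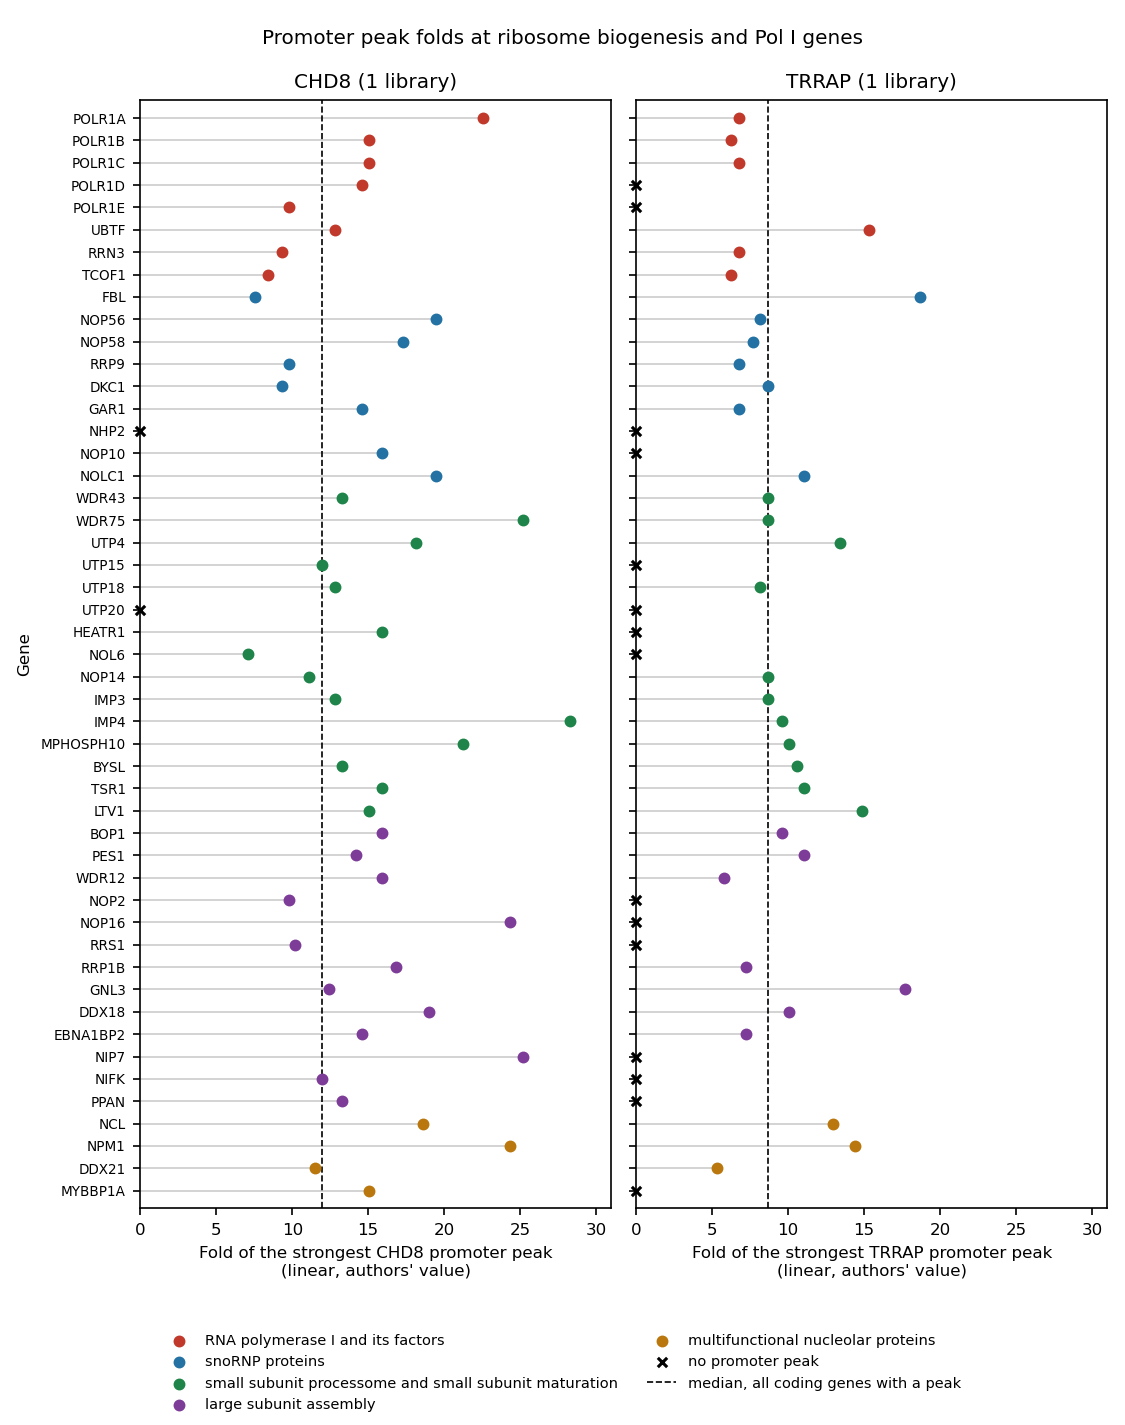
Fold of the strongest promoter peak (horizontal axes, linear, authors' values) of CHD8 (left) and TRRAP (right) at each of the 49 genes (vertical axis), coloured by role, with crosses for genes without a peak and dashed lines at the median of all coding genes with a peak. FBL and GNL3 have the highest TRRAP folds (18.7 and 17.7) but CHD8 folds of 7.54 and 12.4, whereas IMP4 has the highest CHD8 fold (28.3).

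RNA polymerase I and its factors all had CHD8, and TRRAP was found at 6 of 8 but with low folds at 5 of them. POLR1A, the largest catalytic subunit, had the highest CHD8 fold of this group (22.6, −log10 q 53.7, chromosome 2, 86106058 to 86106626). The summit was 358 bp upstream of its start, and the TRRAP fold there was 6.73 in a peak of 125 bp. The head-to-head gene PTCD3 has its canonical start at −349 bp, so these peaks cannot be assigned to POLR1A alone. The CHD8 peak that covered the start of POLR1A itself was weaker (fold 8.87, 86105648 to 86105899, summit 101 bp downstream). POLR1B, which forms the catalytic core with POLR1A, had folds of 15.1 for CHD8 (chromosome 2, 112541771 to 112542805) and 6.26 for TRRAP. POLR1C, a subunit shared with RNA polymerase III, had folds of 15.1 for CHD8 (chromosome 6, 43516614 to 43517428) and 6.73 for TRRAP. All 3 had the summit of their strongest CHD8 peak upstream of the start, and their TRRAP folds were below the median of 8.65.

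POLR1D, the other subunit shared with RNA polymerase III, and POLR1E, a subunit specific to RNA polymerase I, had no TRRAP peak in the window. The strongest of 3 CHD8 peaks at POLR1D (fold 14.6, chromosome 13, 27620406 to 27621224) had its summit 1020 bp upstream, just outside the window that the peak touched. Peaks nearer to the start had CHD8 folds of 5.33 and 7.10. A TRRAP peak (fold 8.65) ended 1028 bp upstream, so POLR1D gained TRRAP with a window of 2500 bp. At POLR1E, the CHD8 fold was 9.75 (chromosome 9, 37485942 to 37486163), with the summit in coding sequence of exon 1, and the nearest TRRAP peak was 19235 bp away.

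UBTF, which binds the ribosomal DNA and opens it for the polymerase, stood apart in this group. It had 3 CHD8 peaks in the window, with folds of 9.31, 12.8 and 11.1 at summits 222 bp upstream and 490 and 924 bp downstream. Its TRRAP peak (fold 15.3, −log10 q 28.7, chromosome 17, 44218340 to 44218680) had its summit 1158 bp downstream, in an intron, and overlapped the most distal CHD8 peak. It was lost with a window of 500 bp. RRN3, which joins the polymerase to its promoter factors, had folds of 9.31 for CHD8 (chromosome 16, 15094036 to 15094483) and 6.73 for TRRAP. TCOF1, a nucleolar phosphoprotein altered in Treacher Collins syndrome, had folds of 8.43 for CHD8 (chromosome 5, 150357592 to 150357831) and 6.26 for TRRAP. The summits at TCOF1 were 7 bp apart, in the 5′ UTR in exon 1.

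None of these 8 promoters held the E-box word between 250 bp before and 50 bp after the start. The ETS word CCGGAAGT, searched on both strands, was in 4 of them and in 10 of all 49 promoters (20.4%, 11.5 to 33.6), against 6.14% of all promoters, 10.3% of those with CHD8 and 28.0% of the other ribosome biogenesis genes. The 4 stretches are shown because they are the only ones of the 8 genes with that word. The word, in capitals, reads CCGGAAGT in TCOF1 and its reverse complement ACTTCCGG in the other 3. It was centred between 35 and 125 bp upstream of the start, and 51 to 167 bp from the TRRAP summit.
POLR1B, chr2:112542411-112542440, plus strand: ctgcggccactACTTCCGGcgtgtaccgag
POLR1C, chr6:43516950-43516979, plus strand: ggacaaaagcaACTTCCGGaagctggggac
RRN3, chr16:15094292-15094321, minus strand: tggcacgcgcaACTTCCGGgacagaggctg
TCOF1, chr5:150357638-150357667, plus strand: cgaaagaggagCCGGAAGTgtggcgcgcga

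Among the 9 genes of snoRNP proteins, 8 had CHD8 and 7 had TRRAP. FBL, the methyltransferase of box C/D snoRNPs, had the highest TRRAP fold of all 49 genes (18.7, −log10 q 37.9, chromosome 19, 39846183 to 39846517). Its CHD8 fold was the second lowest of the 49 genes (7.54, 39846248 to 39846430, 183 bp wide). Both summits were in the 5′ UTR in exon 1, 6 bp apart, with the E-box shown above between the start and the summits. NOP56 and NOP58, the other core proteins of these particles, had higher CHD8 and lower TRRAP folds than FBL. NOP56 had 19.5 for CHD8 (chromosome 20, 2651806 to 2653225) and 8.17 for TRRAP, and NOP58 had 17.3 and 7.69. At NOP56 the TRRAP summit was in an intron, 364 bp downstream, and 560 bp from the CHD8 summit, the longest distance between nearest summits of any gene with both. RRP9, a protein of the U3 snoRNP, had folds of 9.75 for CHD8 and 6.73 for TRRAP, the lowest TRRAP value of the group together with GAR1.

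The 4 core genes of H/ACA snoRNPs, which convert uridine to pseudouridine, differed. DKC1, the pseudouridine synthase, had folds of 9.31 for CHD8 and 8.65 for TRRAP. GAR1 had folds of 14.6 and 6.73. NOP10 had a CHD8 fold of 15.9 (chromosome 15, 34343069 to 34343332) and no TRRAP peak, although its promoter held the E-box word at 2 positions. NHP2 had neither, and the nearest CHD8 and TRRAP peaks were 22452 and 22973 bp downstream of its start, although its CpG ratio (0.83) equalled the median of the 49 genes. NOLC1, a chaperone of snoRNPs, had folds of 19.5 for CHD8 and 11.0 for TRRAP, the second highest TRRAP value of the group.

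The 15 genes of the small subunit processome and of small subunit maturation had CHD8 at 14 and TRRAP at 11. All 11 TRRAP peaks lay in the upper 50% of the TRRAP list, with folds from 8.17 to 14.9. Among RNA polymerase I and its factors 1 of 6 did so, and among all 34 genes with TRRAP 61.8%. The cut fell among tied peaks, which were ordered by width. UTP18 (fold 8.17) ranked at 49.9% of the list, and NOP56, with the same fold and −log10 q, at 54.5%. IMP4, a protein of the U3 particle, had the highest CHD8 fold of the 49 genes (28.3, −log10 q 75.3, chromosome 2, 130341994 to 130343286) and a TRRAP fold of 9.60. The summits lay 59 bp upstream and 33 bp downstream of the start, on either side of an E-box centred 17 bp downstream. Its partners MPHOSPH10 and IMP3 had CHD8 folds of 21.2 and 12.8 and TRRAP folds of 10.1 and 8.65. The strongest peaks at MPHOSPH10 had summits 397 bp (CHD8) and 372 bp (TRRAP) upstream, near the start of the head-to-head gene MCEE (−405 bp). LTV1, which acts in the last steps of small subunit export and maturation, had the highest TRRAP fold of this group (14.9, chromosome 6, 143842896 to 143843664) in a peak of 769 bp. Its CHD8 fold was 15.1.

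The genes of the subcomplex that joins the ribosomal RNA precursor first were not alike in TRRAP. UTP4 had folds of 18.1 for CHD8 and 13.4 for TRRAP, with summits 389 and 408 bp upstream. WDR75 had 25.2 and 8.65, and WDR43 had 13.3 and 8.65. UTP15 (CHD8 fold 11.96, chromosome 5, 73565117 to 73565934) and HEATR1 (15.9, chromosome 1, 236604327 to 236604804) had no TRRAP peak, and the nearest ones were 67111 and 81653 bp away. UTP18, a member of another subcomplex, had the widest CHD8 peak of the 49 genes (1713 bp, fold 12.8) with 3 TRRAP peaks inside the same span, and the strongest had a fold of 8.17, the lowest of the group.

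NOL6 and UTP20 were the weakest genes of this group. NOL6 had 2 narrow CHD8 peaks of fold 7.10, the lowest of all 49 genes (chromosome 9, 33473703 to 33473904 and 33474028 to 33474192), and no TRRAP peak within 36998 bp. UTP20 had neither protein, and the nearest CHD8 peak was 127475 bp downstream. Both promoters held the E-box word, centred 15 bp downstream of the start in NOL6 and 8 bp upstream in UTP20. Among the remaining genes, BYSL had folds of 13.3 for CHD8 and 10.6 for TRRAP, NOP14 had 11.1 and 8.65, and TSR1 had 15.9 and 11.0. The CHD8 summit at TSR1 lay 1011 bp upstream, at the far end of a peak that reached the start, so TSR1 was lost when the summit had to lie in the window.

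All 13 genes of large subunit assembly had CHD8 and 7 had TRRAP (53.8%, 29.1 to 76.8). GNL3, the GTPase nucleostemin, had the second highest TRRAP fold of the 49 genes (17.7, −log10 q 34.8, chromosome 3, 52685464 to 52686136) and a CHD8 fold of 12.4. Its TRRAP summit lay 395 bp upstream, beyond the start of the neighbouring gene PBRM1. PES1, BOP1 and WDR12 form the PeBoW complex, which processes the large subunit's RNA. Their CHD8 folds were close together (14.2, 15.9 and 15.9), whereas their TRRAP folds were 11.0, 9.60 and 5.78. The head-to-head genes HSF1 at BOP1 and CARF at WDR12 start at −166 and −602 bp. Peaks there cannot be assigned to BOP1 or WDR12 alone. The TRRAP peak at WDR12 (chromosome 2, 202912199 to 202912323) was also the lowest of this group and was lost with a window of 500 bp.

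The 6 genes of this group without TRRAP covered the full range of the group's CHD8 folds. NIP7 had the highest of the group (25.2, −log10 q 63.5, chromosome 16, 69339270 to 69339950), followed by NOP16 (24.3, chromosome 5, 176388413 to 176389732). PPAN had 13.3 (chromosome 19, 10106090 to 10106727), NIFK 11.96 (chromosome 2, 121736678 to 121737265) and RRS1 10.2 (chromosome 8, 66428585 to 66429161). NOP2, an RNA methyltransferase, had the lowest of the group (9.75, chromosome 12, 6568074 to 6568686). The nearest TRRAP peaks to these 6 starts were between 9004 and 65458 bp away. DDX18, an RNA helicase, had folds of 19.0 and 10.1, RRP1B had 16.8 and 7.21, and EBNA1BP2 had 14.6 and 7.21.

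The 4 multifunctional nucleolar genes all had CHD8, and 3 had TRRAP. NPM1, a histone and ribosome chaperone, had the highest folds of this group for both proteins. Its strongest CHD8 peak (24.3, chromosome 5, 171387169 to 171387683) and TRRAP peak (14.4, 171387459 to 171387716) had summits 325 and 273 bp upstream. A second CHD8 peak (13.3, 171387780 to 171388873) and a second TRRAP peak (10.6, 171388437 to 171388698) followed downstream, with summits at 644 and 730 bp. NPM1 held no E-box word near its start but had one centred 727 bp and another 738 bp downstream, both inside the second pair of peaks.

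NCL, nucleolin, showed a wide CHD8 peak of 1484 bp (fold 18.6, chromosome 2, 231463673 to 231465156) and the widest TRRAP peak of the 49 genes (799 bp, fold 12.9, 231464122 to 231464920). Their summits lay on different sides of the start, 115 bp downstream for CHD8 and 242 bp upstream for TRRAP. Between 473 and 711 bp downstream of the start NCL had 5 E-box words, all inside the CHD8 peak and outside the TRRAP peak. DDX21, an RNA helicase, had the lowest CHD8 fold of this group (11.5, chromosome 10, 68955724 to 68956504) and the lowest TRRAP fold of the 49 genes (5.30, 68956139 to 68956263). MYBBP1A, a nucleolar protein that binds MYB, had a CHD8 fold of 15.1 (chromosome 17, 4555287 to 4555765) and no TRRAP peak within 21437 bp.

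**Figure D4:**
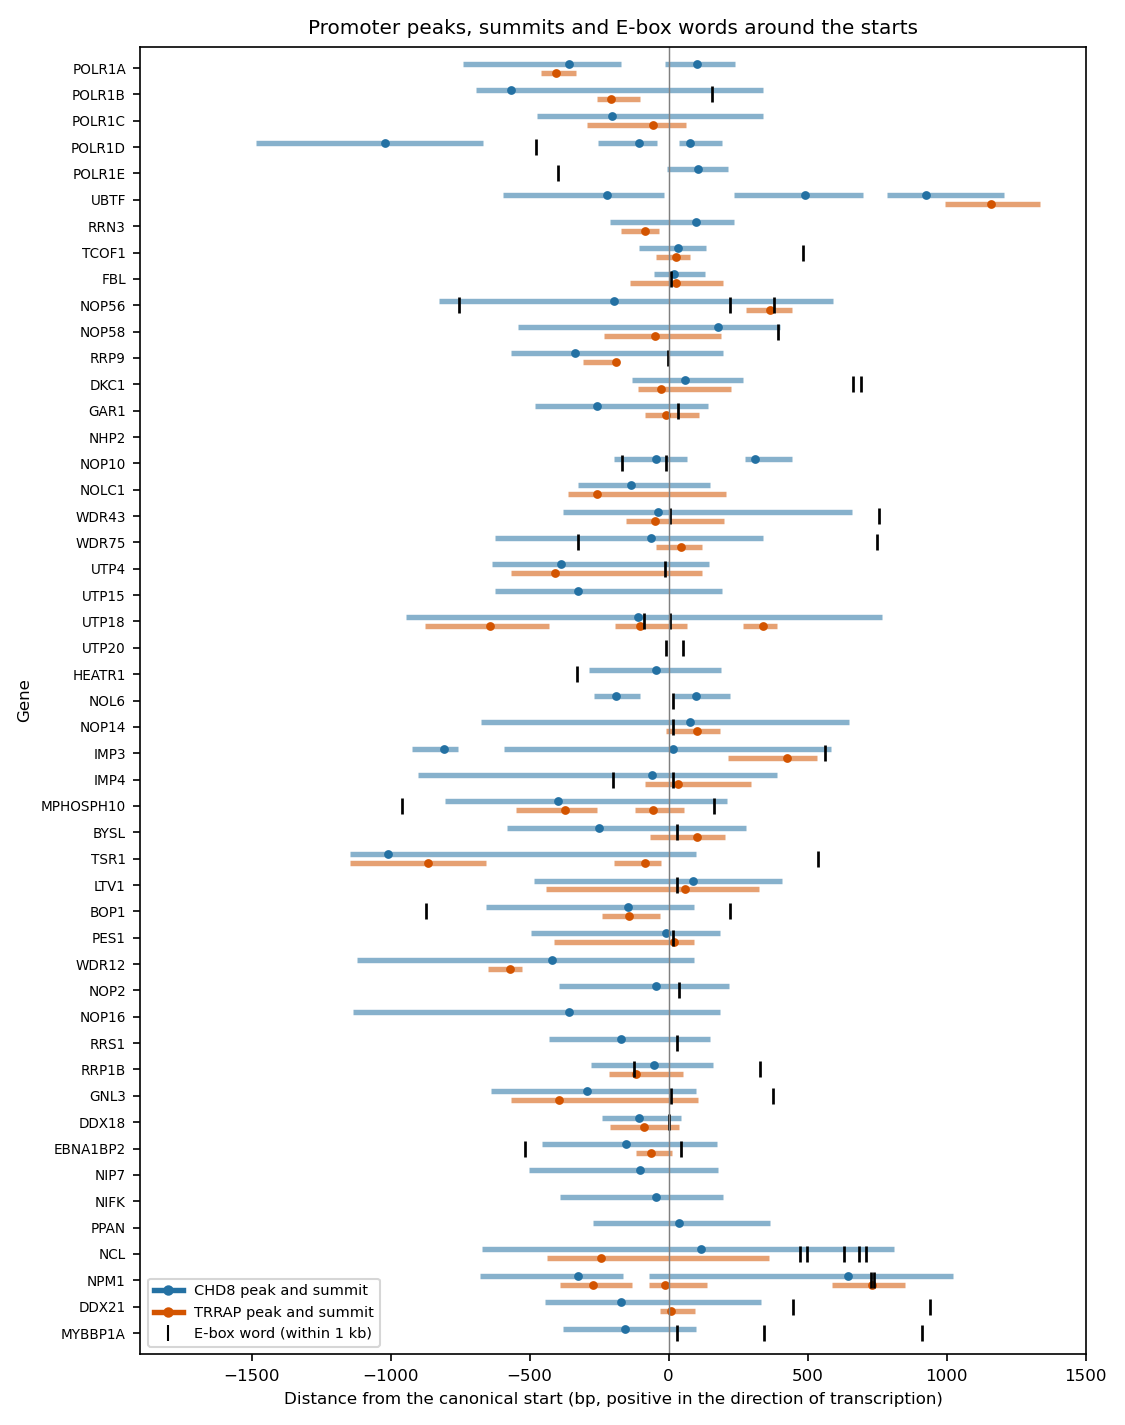
All CHD8 (blue) and TRRAP (orange) promoter peaks of the 49 genes (vertical axis) with their summits (dots) and E-box words (black ticks), by distance from the canonical start (horizontal axis, bp, positive in the direction of transcription). At all 34 genes with both proteins a TRRAP peak overlaps a CHD8 peak, most CHD8 summits lie upstream, and 16 genes carry the word within the first 50 bp downstream.

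The peaks of CHD8 and TRRAP shared sequence at every gene that had both, as in 34 of 34 a TRRAP promoter peak overlapped a CHD8 promoter peak. The nearest summits were a median of 96 bp apart and lay within 50 bp of each other in 12 genes. They were at most 10 bp apart at BOP1 (5 bp), FBL (6 bp), TCOF1 and UTP18 (7 bp each) and WDR43 (10 bp). Shares over all genes with both are not given here for these overlaps and distances. The values therefore cannot be called particular to these genes. CHD8 summits lay upstream of the start in 34 of 47 genes, in exon 1 in 12 and in an intron in 1, and TRRAP summits lay upstream in 22 of 34, in exon 1 in 10 and in an intron in 2. Over all genes with CHD8, 6529 of 11208 summits lay upstream. At the 47 genes this held for 17 of 19 with another coding start in the window and for 17 of 28 without one. The median CHD8 offset was −108 bp, against −31 bp over all genes with CHD8, and the median TRRAP offset was −60.5 bp, against −47 bp. Measured from the nearest start of any annotated transcript, the medians at the 49 genes were −37 and −21 bp. Values over all genes from those starts are not given here, so these medians cannot be compared with −31 and −47 bp. The median width was 736 bp for CHD8 (all genes, 638 bp) and 271 bp for TRRAP (all genes, 269 bp).

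Many of these starts face another gene. A head-to-head neighbour with its canonical start within 1 kb was present at 18 of 49 genes (36.7%, 24.7 to 50.7), against 9.46% of all protein-coding genes, 27.0% of the other ribosome biogenesis genes and 33.3% of the mitochondrial ribosomal protein genes. The neighbours included HSF1 at BOP1, MED20 at BYSL, PBRM1 at GNL3, PTCD3 at POLR1A and COG8 at NIP7. PPAN also shares its start region with PPAN-P2RY11, a readthrough gene on the same strand. A peak at such a pair cannot be assigned to either gene. The 19 genes with another coding start in the window had CHD8 in 19 cases and TRRAP in 14, and the 30 genes with no such start had CHD8 in 28 and TRRAP in 20 (66.7%, 48.8 to 80.8). The interval of the latter includes the 51.7% of other genes of like CpG ratio. The median CHD8 offset was −204 bp in the former and −44.5 bp in the latter.

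The 13 genes with CHD8 alone were compared with the 34 that had both. Their CHD8 folds covered nearly the same range, 7.10 to 25.2 (median 13.3) against 7.54 to 28.3 (median 15.1), and overlapped throughout. Their CHD8 peaks had a median width of 588 bp against 781 bp, and their promoters a median CpG ratio of 0.80 against 0.85. Over all genes with CHD8 the same differences were present: the median fold was 10.6 without TRRAP and 13.3 with it, the median width 499 and 745 bp, and the median CpG ratio 0.76 and 0.82. The strong CHD8 peaks at NIP7 and NOP16 without TRRAP, beside the weak CHD8 peak and strong TRRAP peak at FBL, are cases in which a higher CHD8 fold did not go with TRRAP. NIP7 and NOP16 face COG8 (−208 bp) and HIGD2A (−153 bp), so their peaks cannot be assigned to them alone.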

How the data were processed

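ChIP-seq peak lists of 1 CHD8 and 1 TRRAP library were used. Per the labels' protocols, chromatin was fixed in sequence by 2 mM DSG (a protein crosslinker) and 1% formaldehyde, then sheared in 14 sonication cycles. The submitters' processing notes name HISAT2, MACS2 2.1.1.20160309 and GRCh38, without roles. The control, read filters and read totals are not given in the sources used here, so the depth is unknown. The lists held 23393 (CHD8) and 14735 (TRRAP) peaks, all on sequences of the GRCh38 reference. Per peak, the authors deposited a fold (linear ratio), −log10 p and −log10 q values, a summit and a score, which equals 10 times the −log10 q rounded down. File names give q-value limits of 0.0001 for CHD8 and 0.001 for TRRAP.

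Peaks overlapping 1 kb on each side of the canonical start by at least 1 bp were assigned to genes, and words were searched in the reference sequence. Genes in full detail were RNA polymerase I genes, the highest and lowest folds per role group and genes lacking a peak. Python 3.11.15, numpy 2.4.6, pandas 2.3.3, scipy 1.17.1 and matplotlib 3.10.9 were used, and the code was tested on simulated data. The members and lists were chosen with earlier results of these data known. Position bins, distances of words to summits and head-to-head neighbours were chosen after the values were seen. Alternatives changed the window, list threshold, start site, choice of peak and word window.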

Additional observations from a re-analysis of the deposited data

How the results depend on the processing

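Across windows of 500 and 2500 bp, the TRRAP q-value limit of 0.0001, the summit rule and all transcript starts, CHD8 was at 46 or 47 genes, TRRAP at 32 to 35 and both at 32 to 35. With the upper 50% of each list, TRRAP fell to 21 genes and both to 19, since that list is shorter by construction. Median folds did not move with the window, the starts or the nearest peak. The median CHD8 width was 681 bp with the window of 500 bp or the peak nearest to the start. The median TRRAP width was 270 bp with 2500 bp or all transcript starts and 256 bp with the nearest peak. The median CHD8 offset was −103 bp with 500 bp or the nearest peak and −37 bp with all transcript starts, and the TRRAP offset was −65 bp with 2500 bp, −53 bp with the nearest peak and −21 bp with all transcript starts. The E-box was in 33 genes within 500 bp of the start and in 11 within 100 bp of the CHD8 summit. The word windows differ in length and in genes counted. No paired analysis was possible because each antibody had 1 library. The unknown read totals limit any statement on absent peaks.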

Other observations

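In the annotation, 8 of the 49 genes have small nucleolar RNAs within their bounds: NOP56, NOP58, DKC1, WDR43, TSR1, GNL3, PPAN and NCL. These genes all had CHD8, and 7 of the 8 had TRRAP (87.5%, 52.9 to 97.8), PPAN being the exception. Of the 41 genes without such an RNA, 39 had CHD8 and 27 had TRRAP (65.9%, 50.5 to 78.4), so the intervals overlapped. The median CpG ratio was 0.86 in the former and 0.81 in the latter, and its part was not tested. The median TRRAP fold was 8.65 in both sets.

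Other words, all longer than the E-box, were less frequent than it at these promoters, as they were over all promoters (E-box 8.76%). The YY1 word AAGATGGCG was in 5 of 49 promoters (10.2%), POLR1C, NOLC1, IMP4, BOP1 and NIP7, against 2.84% of all promoters and 4.91% of those with CHD8. It was as frequent in related lists, at 9.00% of the other ribosome biogenesis, 11.4% of the cytosolic and 16.7% of the mitochondrial ribosomal protein promoters. The E2F words TTTGGCGC or TTTCCCGC were in 2 (4.08%), POLR1E and PES1, against 3.08%, and 4.30% of promoters with CHD8 held them. The NRF1 word TGCGCATGC was in UTP18 and MYBBP1A (4.08%, against 2.04%), and the word CTCGCGAG, which ZBTB33 and BANP bind, in NOP14 and NPM1 (4.08%, against 1.46%). The Wilson 95% interval of the YY1 share was 4.44% to 21.8%, and that of each share of 2 promoters was 1.13% to 13.7%.

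Away from the promoters, 2 CHD8 peaks lay in an intron of POLR1A (folds 7.10 and 8.43, with summits 69739 and 69249 bp downstream) and 1 in an intron of BOP1 (7.98), and no TRRAP peak lay in the canonical transcript of any of the 49 genes outside its promoter window.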
